A study of Mus musculus with 12 samples.

Results

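The genes described here are 45 mouse genes of the secretory pathway and of the unfolded protein response, listed by symbol, from translocation of new chains into the endoplasmic reticulum (ER) to their export. Each gene was read from the 1 probe set assigned to its symbol alone that had the highest mean over all 12 arrays. By this rule 44 of the 45 were measured, out of 18193 genes with such a probe set. Sec61g, a small subunit of the translocation channel, had only a probe set shared with Gm11575 and Gm10177 and is given no value. By role, 12 of the measured members act in translocation and signal peptide cleavage, 15 in folding, 9 in ER-associated degradation and 5 in ER exit and retrieval, and 3 are the sensors of ER stress.

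Affymetrix whole-genome arrays, deposited as log2 values, measured RNA of spleen B220+ cells of C57BL/6 mice that carry the MD4 transgene, Tg(IghelMD4)4Ccg, so that their B cells bear 1 prearranged receptor, for hen egg lysozyme (HEL). The cells were separated with MACS beads and all received the same stimulus, described in the labels as signals derived from follicular helper T cells and made up of an antibody to CD40, the cytokine IL21 and the antigen HEL. The 6 groups of 2 arrays each were control, Jmjd2a depleted and Jmjd2c depleted cells, each collected on day 1 and on day 3. Jmjd2a (gene Kdm4a) and Jmjd2c (gene Kdm4c) are histone lysine demethylases, and the series title places the question in plasma cell differentiation. The labels do not settle the reagent, since the treatment text names siRNA transfection and the sample sources name shRNA viruses, and no source used here says which share of the cells took it up. The titles call the 2 arrays of a group biological replicates but name no separate cultures or animals, so p-values measure only the spread between arrays. Both day 3 control arrays carry the same sample code in their descriptions and were told apart by title. A day 0 sample named in the design was not analysed here.

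Secreted and membrane proteins enter the ER through the Sec61 channel while they are being made, lose their signal peptide, and are folded by chaperones and disulphide isomerases. Chains that fail to fold are pulled back into the cytosol and destroyed, which is ER-associated degradation. The sensors IRE1, ATF6 and PERK read the load of unfolded chains and start the unfolded protein response, which raises chaperones and degradation factors and slows translation. B cells that turn into plasma cells enlarge this system for antibody secretion, a change in which the transcription factor XBP1, activated by IRE1, has a leading part.

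Over the tested 45037 probe sets the array medians lay between 5.2 and 5.25, so depth is not a measure here and 2 arrays a group limit the precision. The day 3 control replicate 2 array stood apart, with an interquartile range of 3.08 against 3.38 to 3.63 on the others and a correlation of 0.9887 with its partner against 0.9959 to 0.9978 within the other groups. Neither targeted transcript was lower in its own groups at an adjusted p under 0.05. Kdm4a read 7.9 and 7.92 in day 1 controls, 7.94 and 8.09 on day 1 arrays labelled Jmjd2a depleted, 8.2 and 8.17 in day 3 controls, and 8.08 and 8.05 on day 3 arrays labelled Jmjd2a depleted, with differences of 0.11 (limma adjusted p = 0.62) and -0.12 (adjusted p = 0.36). Kdm4c read 7.78 and 7.84 in day 1 controls, 8.02 and 7.98 on day 1 arrays labelled Jmjd2c depleted, 7.96 and 7.56 in day 3 controls, and 7.81 and 7.78 on day 3 arrays labelled Jmjd2c depleted, with differences of 0.19 (adjusted p = 0.41) and 0.03 (adjusted p = 0.91). The arrays are therefore named below by their labels alone. The list of 9 B cell genes had a summed level (log2 of the summed linear values) of 14.03 to 15.16 on the 12 arrays, and lists of other blood cell types changed between groups, as given beside the results.

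**Figure D1:**
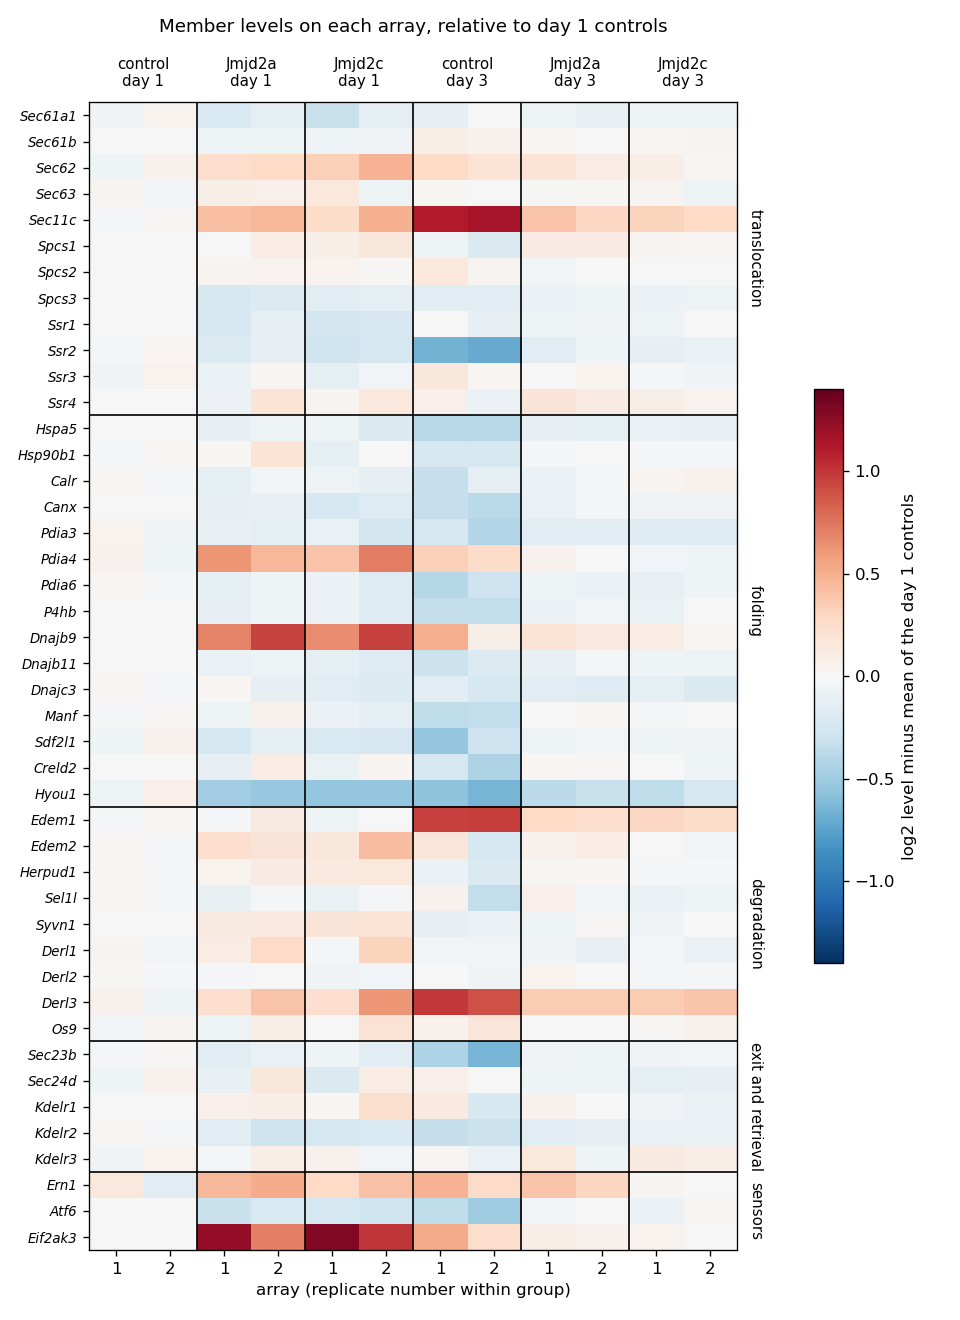
Log2 level of each of the 44 measured members (vertical axis, ordered by role) on each of the 12 arrays (horizontal axis, by group and replicate), minus the mean of the 2 day 1 control arrays; red is higher, blue lower. The day 3 control columns carry the strongest colours of Sec11c, Edem1 and Derl3, and the day 1 columns of both depleted labels carry those of Eif2ak3 and Dnajb9.

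In the controls, most folding genes fell between day 1 and day 3, and the degradation genes Edem1 and Derl3 rose. Of the 15 folding genes 12 fell, 1 rose and 2 did not pass the test, with a median log2 difference of -0.34. Of the 9 degradation genes these 2 rose, none fell and 7 did not pass the test. Of the 12 translocation genes 2 rose and 2 fell, of the 5 exit and retrieval genes 2 fell, and of the 3 sensors 1 rose and 1 fell. In all, 6 members rose and 17 fell, while 8.46% of all probe sets were called higher and 15.4% lower, and among 11184 genes above the median level 14.5% were called higher and 27.3% lower. The median over the members was -0.08, against 0.04 over all probe sets and -0.04 over those 11184 genes above the median level. Of 25 second probe sets of the called members, 21 differed in the same direction, 11 were called the same way and 0 the opposite way. The 2 groups did not overlap for any of the 23 called members. The same held for the called members of every other comparison of 2 groups, so it adds no support to the calls. Here and below, a call is an adjusted p under 0.05 in limma, adjusted by Benjamini-Hochberg over all 45037 probe sets, and differences are log2 with their standard errors.

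Sec11c, a catalytic subunit of the signal peptidase that removes signal peptides, had the largest rise of the members. It read 10.74 and 10.78 in day 1 controls and 11.87 and 11.91 in day 3 controls, a difference of 1.14 ± 0.07 (adjusted p = 6e-07). On day 1 it read 11.18 and 11.22 with the Jmjd2a label and 11.02 and 11.26 with the Jmjd2c label, and on day 3 11.16 and 11.05, and 11.07 and 11.04. Day 3 controls were therefore above every other array, and day 1 controls below every other array. A dimmer second Sec11c probe set differed by 0.4 between the control days and did not pass the test (adjusted p = 0.12).

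Sec62, a channel partner that helps some chains to enter after synthesis, rose from 9.48 and 9.59 to 9.81 and 9.73 in the controls, by 0.23 (adjusted p = 0.042). It read 9.78 and 9.81, and 9.87 and 10.02, on day 1 with the Jmjd2a and Jmjd2c labels, and 9.73 and 9.64, and 9.63 and 9.55, on day 3. The Sec62 call in the controls was lost without 1 or another of the arrays, and the mean over its probe sets gave -0.06 instead. Sec61b, a subunit of the Sec61 channel itself, was level: it read 12.33 and 12.34 in day 1 controls, 12.43 and 12.4 in day 3 controls, and from 12.26 to 12.37 on the 8 arrays of depleted labels, with no call in any comparison. Ssr2, a subunit of the translocon-associated TRAP complex, moved against Sec11c. It fell in the controls by 0.68 ± 0.07 (adjusted p = 2e-05), from 9.71 and 9.77 to 9.08 and 9.03, below all 10 other arrays. Of the other TRAP subunits, Ssr1, Ssr3 and Ssr4 differed by -0.06, 0.09 and 0 in the controls and were not called, and Spcs3, a non-catalytic subunit of the signal peptidase, fell by 0.15 (adjusted p = 0.048).

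Among the folding genes, many have a known control sequence close to their start site. The ER stress element joins CCAAT to CCACG with 9 bases between them, and is the site through which ATF6, with the CCAAT-binding factor NF-Y, and XBP1 act on chaperone genes. It was searched on both strands of the RefSeq promoter windows (GRCm38.p6, from 250 bases before to 50 bases after each start), which 36 of the 45 members have. The element was found for 9 of these 36 members (25%), against 37 of 27025 genes with a window (0.137%). Because the list holds chaperone genes, for which the element is known, these shares are a description and not a test. By role it was found in 7 of 13 folding genes and in 2 of 8 degradation genes, and in none of the windows of the other roles. The matches are shown so that the members that hold the element, folding and degradation genes alike, can be compared by sequence; capitals mark the CCAAT and CCACG ends, and each is written 5′ to 3′ on the strand given.
Hspa5 element at chr2:34772025-34772043, plus strand: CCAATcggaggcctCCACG
Hsp90b1 element at chr10:86705638-86705656, minus strand: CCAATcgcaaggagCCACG
Hsp90b1 element at chr10:86705533-86705551, plus strand: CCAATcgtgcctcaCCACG
Calr element at chr8:84847075-84847093, plus strand: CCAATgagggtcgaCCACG
Canx element at chr11:50325800-50325818, minus strand: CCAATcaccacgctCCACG
Pdia6 element at chr12:17266491-17266509, plus strand: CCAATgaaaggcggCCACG
Dnajc3 element at chr14:118937827-118937845, plus strand: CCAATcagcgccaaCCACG
Creld2 element at chr15:88819520-88819538, minus strand: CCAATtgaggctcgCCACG
Derl3 element at chr10:75893242-75893260, minus strand: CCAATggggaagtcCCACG
Syvn1 element at chr19:6046532-6046550, plus strand: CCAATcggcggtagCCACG

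The full windows of Hspa5 and Derl3 are shown because both hold the element while their levels went opposite ways in the controls. Both are written 5′ to 3′ in the direction of the gene. Capitals mark the element, which lies on the opposite strand in Derl3 and is read there from right to left, and in Derl3 also the earlier run GCCACGT, a match that 27.8% of members with a window hold and 2.95% of all genes with one.
Hspa5 window at chr2:34771840-34772139, plus strand: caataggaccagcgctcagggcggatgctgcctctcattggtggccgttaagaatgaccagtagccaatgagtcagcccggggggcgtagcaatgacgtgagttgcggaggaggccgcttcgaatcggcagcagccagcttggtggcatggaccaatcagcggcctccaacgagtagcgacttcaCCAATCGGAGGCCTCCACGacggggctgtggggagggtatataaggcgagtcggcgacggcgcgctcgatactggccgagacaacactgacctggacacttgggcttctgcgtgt
Derl3 window at chr10:75893148-75893447, plus strand: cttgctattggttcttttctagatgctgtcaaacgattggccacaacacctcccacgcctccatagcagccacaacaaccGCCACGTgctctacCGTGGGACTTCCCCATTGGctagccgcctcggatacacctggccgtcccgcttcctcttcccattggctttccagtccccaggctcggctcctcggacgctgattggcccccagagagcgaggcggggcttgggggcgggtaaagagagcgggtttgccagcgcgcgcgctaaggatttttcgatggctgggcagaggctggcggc

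A match is a run of letters, not a shown binding site. In the controls between day 1 and day 3, 6 of the 7 folding genes with the element fell and none rose, and of the 6 folding genes with a window that lacked it 4 fell and 1 rose. Manf and Hyou1, with no window, both fell. Of the 2 degradation genes with the element, Derl3 rose and Syvn1 differed by -0.1 and was not called. A second ER stress element, ATTGG and CCACG 1 base apart, was also searched. It was found for 5.56% of the members with a window and 0.0444% of all genes with one. The members were Dnajb11, which fell and is among the 6 counted above as lacking the first element, and the degradation gene Herpud1, not called. Whether either element goes with a direction was not tested.

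Hspa5 (BiP), the main chaperone of the ER lumen, read 13.14 and 13.16 in day 1 controls and 12.76 and 12.76 in day 3 controls, a fall of 0.39 (adjusted p = 2.6e-05). On the arrays of depleted labels it stayed between 12.95 and 13.08, so that the day 3 controls lay below all 10 other arrays. Hsp90b1 (GRP94), the ER form of HSP90, read 12.36 and 12.4, then 12.14 and 12.16, a fall of 0.23 (adjusted p = 0.012) whose call was lost without 1 or another of the arrays. On the arrays of depleted labels Hsp90b1 read 12.24 to 12.57. These falls were small in size: 0.39 on the log2 scale is a factor of 1.31.

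Sdf2l1, a partner of BiP, read 10.77 and 10.88 in day 1 controls and 10.28 and 10.54 in day 3 controls, a fall of 0.41 (adjusted p = 0.0024). Creld2, an ER disulphide isomerase that is secreted under stress, read 9.91 and 9.91, then 9.66 and 9.48, a fall of 0.34 (adjusted p = 0.012). Hyou1 (GRP170), which recharges BiP with ATP, read 9.44 and 9.58, then 8.95 and 8.86, a fall of 0.61 (adjusted p = 0.00014), the largest in the folding group. For each of the 3 the control groups did not overlap. The Hyou1 fall rests on its probe set: 1 other Hyou1 probe set differed by 0.01 between the control days.

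The remaining folding genes that fell in the controls did so by similar amounts. The calnexin cycle members Canx and Calr, which hold glycoproteins while they fold, fell by 0.35 (adjusted p = 6.2e-05) and 0.23 (adjusted p = 0.013). The disulphide isomerases Pdia3, Pdia6 and P4hb fell by 0.32, 0.34 and 0.34, and the co-chaperone Dnajb11 and the stress-induced factor Manf by 0.25 and 0.35. Dnajc3, an inhibitor of translation arrest and a BiP co-chaperone, differed by -0.19 and was not called. Pdia4, another disulphide isomerase, rose by 0.3 (adjusted p = 0.049), from 9.56 and 9.45 to 9.84 and 9.76. Dnajb9 (ERdj4), a co-chaperone of BiP and a known target of XBP1, read 8.73 and 8.71, then 9.23 and 8.8, a difference of 0.29 that was not called.

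Edem1, which hands misfolded glycoproteins to degradation, read 10.26 and 10.31 in day 1 controls and 11.24 and 11.25 in day 3 controls. It rose by 0.96 (adjusted p = 7.9e-07), and a second Edem1 probe set rose by 0.73 (adjusted p = 4.9e-06). Derl3, a derlin of the retrotranslocation machinery that is abundant in secretory cells, read 6.76 and 6.64, then 7.69 and 7.59, a rise of 0.94 (adjusted p = 0.00025). On every array of the depleted labels Edem1 lay between 10.21 and 10.57 and Derl3 between 6.93 and 7.32, so the day 3 controls stood above all other arrays for both. The other 7 degradation genes, among them the ubiquitin ligase Syvn1, its partner Sel1l, Herpud1, and the derlins Derl1 and Derl2, differed by -0.14 to 0.11 in the controls and were not called.

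Of the exit and retrieval genes, Sec23b, an inner coat subunit of the COPII vesicles that leave the ER, read 10.51 and 10.54, then 10.09 and 9.87 in the controls, a fall of 0.55 (adjusted p = 0.00015). Kdelr2, a receptor that returns escaped chaperones to the ER, read 10.36 and 10.33, then 10.01 and 10.04, a fall of 0.32 (adjusted p = 0.0021). In both, day 3 controls were below day 1 controls with no overlap. The COPII cargo subunit Sec24d and the other KDEL receptors Kdelr1 and Kdelr3 differed by 0.04, -0.04 and -0.04 and were not called; the Kdelr3 probe set was dim, at 4.22 to 4.46 on all arrays.

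The 3 sensors did not move together in the controls. Atf6, the sensor that is itself cut into a transcription factor, read 9.98 and 9.96, then 9.62 and 9.47, a fall of 0.42 (adjusted p = 0.001) that 2 other Atf6 probe sets also showed, at -0.99 (adjusted p = 0.00039) and -0.31 (adjusted p = 0.017). Ern1 (IRE1), the kinase and nuclease that splices Xbp1 mRNA, read 6.5 and 6.21, then 6.84 and 6.62, a rise of 0.37 (adjusted p = 0.049) that none of its 4 other probe sets passed. Eif2ak3 (PERK), the kinase that slows translation, read 8.73 and 8.74, then 9.25 and 8.98, a difference of 0.38 that was not called.

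**Figure D2:**
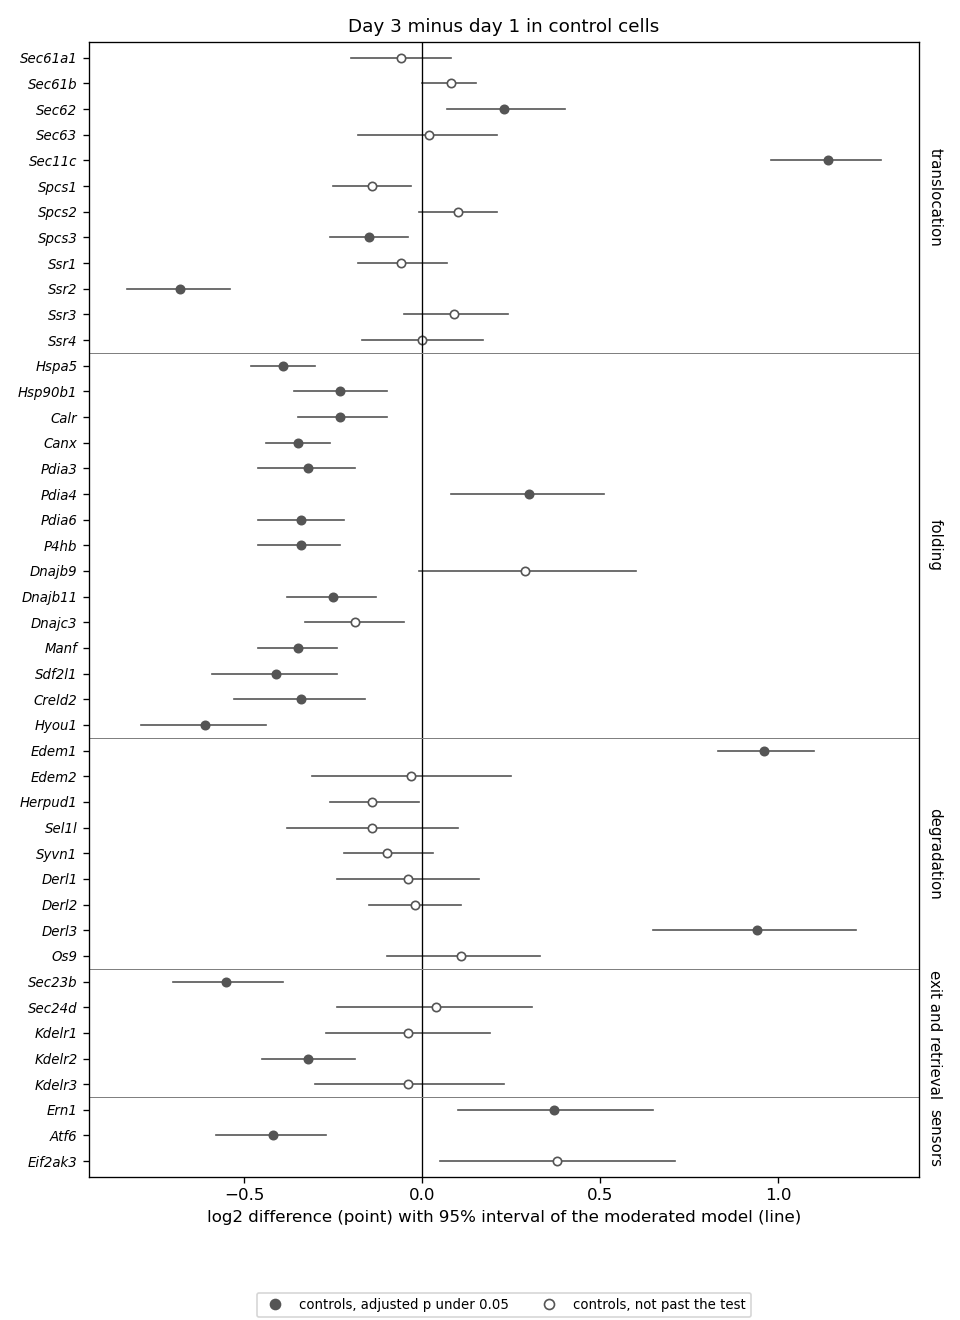
Log2 difference of day 3 against day 1 in the controls (horizontal axis) for the 44 measured members (vertical axis, by role), as the estimate with its 95% interval; filled points passed the test and open points did not. Sec11c, Edem1 and Derl3 lie near 1, and the 12 folding genes that fell lie between -0.61 and -0.23.

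Without the day 3 control replicate 2 array, which stood apart, 8 members rose and 15 fell; without day 1 control replicate 2 the counts were 3 and 12. With every array centred on its median the split was 3 higher and 19 lower, against 6 and 17. Quantile normalization gave 8 higher and 15 lower, with a median over the members of -0.03. Markers of other cell types moved with the day in these bulk samples, where fewer cells of a type and less RNA per cell cannot be told apart. Of 13 macrophage and monocyte genes 11 rose and none fell, with a summed level of 9.16 to 9.24 in day 1 controls and 11.11 to 11.13 in day 3 controls, and of 7 natural killer (NK) cell genes 6 rose, with summed levels of 8.13 to 8.33 and 11.39 to 11.42. On a log2 scale no marker is at 0, but the macrophage list's mean in day 1 controls, 4.94 to 4.99, was below the array medians. The part of these cells in the members' changes was not tested.

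On day 1, the arrays labelled Jmjd2a depleted differed from the controls in 9 members, with Sec11c, Pdia4, Dnajb9, Ern1 and Eif2ak3 higher and Spcs3, Hyou1, Kdelr2 and Atf6 lower. Of the 44 members 5 were higher and 4 lower, while 4.23% of all probe sets were called higher and 3.25% lower. For the arrays labelled Jmjd2c depleted, 5 were higher and 7 lower, with 5.32% and 5.69% of all probe sets called. Of the 11184 brighter genes the shares were 8.59% and 7.4% for Jmjd2a and 11.1% and 11.7% for Jmjd2c. The members' counts are near these shares, so they are not particular to the members. The medians over members were -0.01 and -0.05, against -0.04 and -0.03 over all probe sets. Over the brighter genes they were -0.04 and -0.04. Second probe sets of the called members were called the same way in 2 of 13 cases with the Jmjd2a label and 5 of 23 with the Jmjd2c label. They differed in the same direction in 10 and 19. Of the members called for each label, 7 were called the same way for both, which is 7 of 9 and 7 of 12, and both labels share the same control arrays. The same-numbered day 1 arrays of the 2 labels also deviated together, at a correlation of 0.392.

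Eif2ak3 had the largest difference on day 1. Against 8.73 and 8.74 in controls it read 9.97 and 9.44 with the Jmjd2a label, a difference of 0.97 ± 0.15 (adjusted p = 0.0021), and 10.03 and 9.74 with the Jmjd2c label, a difference of 1.15 (adjusted p = 0.00051). A second Eif2ak3 probe set differed by 0.81 (adjusted p = 0.0057) and 1 (adjusted p = 0.0011). All 4 arrays of depleted labels were above both controls.

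Dnajb9 followed the same course. It read 9.41 and 9.67 with the Jmjd2a label and 9.38 and 9.68 with the Jmjd2c label, against 8.73 and 8.71 in controls, differences of 0.82 ± 0.14 (adjusted p = 0.0036) and 0.81 (adjusted p = 0.0028). Pdia4 read 10.12 and 9.97, and 9.9 and 10.22, against 9.56 and 9.45, differences of 0.54 ± 0.1 (adjusted p = 0.0064) and 0.56 (adjusted p = 0.0038). Sec11c was higher by 0.44 ± 0.07 (adjusted p = 0.0026) and 0.38 (adjusted p = 0.0046), and the values given above show no overlap with the controls in any of these genes. Ern1 passed the test with the Jmjd2a label, at 6.82 and 6.88 against 6.5 and 6.21, a difference of 0.49 ± 0.13 (adjusted p = 0.033). With the Jmjd2c label Ern1 read 6.63 and 6.76, a difference of 0.34 that was not called, and the labels differed from each other by 0.16, not called. Sec62 was higher by 0.41 (adjusted p = 0.0043) with the Jmjd2c label and differed by 0.26 ± 0.08 with the Jmjd2a label, not called.

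Some folding and transport genes were lower on day 1. Hyou1 read 9.02 and 8.98, and 8.97 and 8.97, below controls at 9.44 and 9.58, by differences of -0.51 ± 0.08 (adjusted p = 0.0021) and -0.54 (adjusted p = 0.0011). Kdelr2 read 10.19 and 10.06, and 10.1 and 10.13, differences of -0.22 ± 0.06 (adjusted p = 0.047) and -0.23 (adjusted p = 0.03). Atf6 read 9.66 and 9.76, and 9.72 and 9.69, a difference of -0.26 with each label (adjusted p = 0.05, just under the threshold before rounding, and 0.036). Spcs3 passed the test with the Jmjd2a label at -0.21 (adjusted p = 0.028) and was at -0.14, not called, with the Jmjd2c label. Ssr2, Ssr1, Sec61a1 and Canx passed it with the Jmjd2c label at -0.25, -0.25, -0.22 and -0.22, and were at -0.16, -0.18, -0.18 and -0.1, not called, with the Jmjd2a label. Hspa5, at 13.04 and 13.08, and 13.08 and 12.95, differed by -0.09 and -0.13 and was not called, and none of the 9 degradation genes was called with either label.

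**Figure D3:**
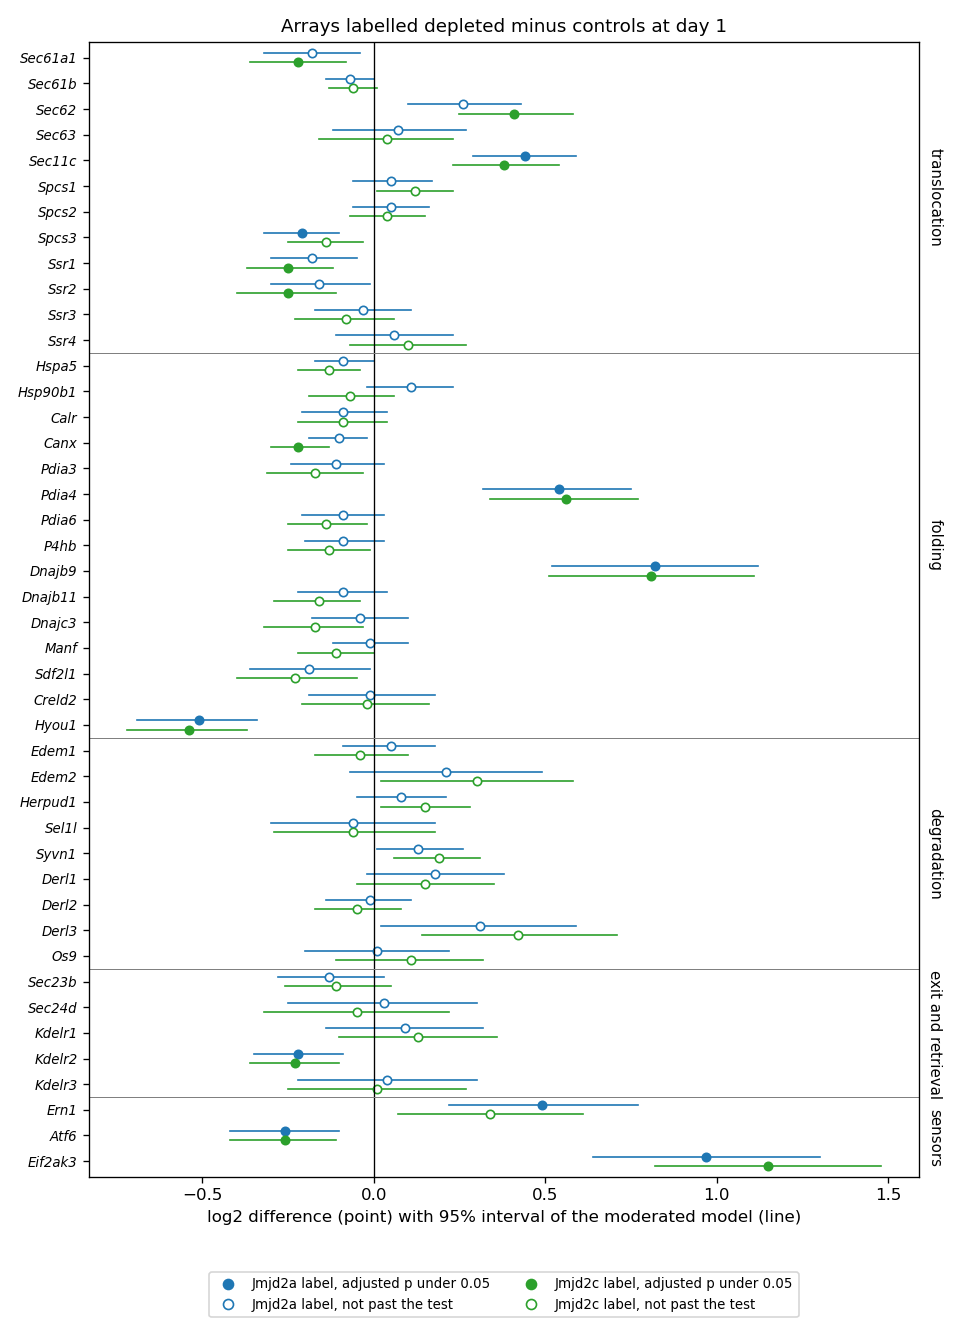
Log2 difference from the control on day 1 (horizontal axis) for each of the 44 measured members (vertical axis, by role) for the labels Jmjd2a depleted and Jmjd2c depleted, with 95% intervals; filled points passed the test. Eif2ak3 and Dnajb9 lie farthest to the right with both labels and Hyou1 farthest to the left.

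The day 1 counts depended on single arrays. The count with the Jmjd2a label was 3 without day 1 control replicate 2, and 5 without Jmjd2a day 1 replicate 1 or any 1 of the 4 day 3 arrays of depleted labels; that with the Jmjd2c label was 4 or 5 without day 1 control replicate 1 or 2, 7 without Jmjd2c day 1 replicate 2 and 23 without either day 3 control array. Sec11c, Dnajb9 and Eif2ak3 with the Jmjd2a label, and Dnajb9, Hyou1 and Eif2ak3 with the Jmjd2c label, were called without any 1 of the arrays. Centred arrays gave 5 higher and 2 lower with the Jmjd2a label, against 5 and 4. Markers of other cells were higher on the same arrays: 12 and 13 of 13 macrophage and monocyte genes were called higher, with summed levels of 12.08 to 12.44 and 11.99 to 13.22 against 9.16 to 9.24, and 5 and 6 of 7 NK cell genes, with 9.6 to 10.37 and 10.18 to 10.34 against 8.13 to 8.33. The 8 neutrophil genes were not called but had summed levels of 8.53 and 11.78 with the Jmjd2a label and 8.52 and 12.68 with the Jmjd2c label, against 7.67 to 7.73, replicate 2 being the high array in both. Of 9 B cell genes 7 and 8 were also higher, with summed levels of 14.9 to 15.11 and 15.12 to 15.16 against 14.03 to 14.06. The part of these in the members' differences was not tested; without Jmjd2a day 1 replicate 2 the Jmjd2a count was 7.

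On day 3, 10 of the 15 folding genes were higher than in the controls with each depleted label, and Sec11c, Edem1 and Derl3 were lower. No folding gene was lower with the Jmjd2a label, and 1, Pdia4, was lower with the Jmjd2c label. Of the 12 translocation genes 2 were higher and 1 lower with each label. Of the 9 degradation genes 2 were lower with each label, and of the 5 exit and retrieval genes 2 were higher. Over all members 15 were higher and 3 lower with the Jmjd2a label, with 13.7% of all probe sets called higher and 7.11% lower. With the Jmjd2c label 15 were higher and 4 lower, with 9.28% and 5.04% of all probe sets called. Of the 11184 brighter genes 25.5% were called higher and 11.5% lower for Jmjd2a and 19.4% and 10.5% for Jmjd2c. The members' medians were 0.08 and 0.07, against -0.04 and -0.01 over all probe sets. Over the 11184 brighter genes the medians were 0.05 and 0.03, of the same sign as those of the members. Second probe sets of the called members were called the same way in 7 of 15 cases with the Jmjd2a label and 8 of 18 with the Jmjd2c label. They differed in the same direction in 13 and 15. The members called for both labels were 17, of 18 and of 19, and the labels again share their controls, which are also the arrays of the comparison of days above.

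Sec11c, at 11.16 and 11.05 with the Jmjd2a label and 11.07 and 11.04 with the Jmjd2c label against 11.87 and 11.91 in controls, was lower by differences of -0.79 (adjusted p = 1.6e-05) and -0.84 (adjusted p = 1.3e-05). Edem1 read 10.56 and 10.53, and 10.57 and 10.54, against 11.24 and 11.25, differences of -0.7 (adjusted p = 1.5e-05) and -0.69 (adjusted p = 2e-05). Derl3 read 7.06 and 7.05, and 7.06 and 7.1, against 7.69 and 7.59, differences of -0.58 (adjusted p = 0.0079) and -0.56 (adjusted p = 0.012). In all 3 genes the 4 arrays of depleted labels lay below both controls, with no overlap.

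Ssr2 showed the reverse, at 9.59 and 9.68, and 9.63 and 9.65, against 9.08 and 9.03, higher by 0.58 with each label (adjusted p = 0.00011 and 0.00013). The signal peptidase subunit Spcs1 was higher by 0.25 (adjusted p = 0.004) and 0.17 (adjusted p = 0.045). Sec62 and Sec61b differed by -0.08 and -0.18, and by -0.06 and -0.05, and were not called.

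Hspa5 read 13.03 and 13.01 with the Jmjd2a label and 13.06 and 13.05 with the Jmjd2c label against 12.76 and 12.76 in controls, higher by 0.26 (adjusted p = 0.00073) and 0.3 (adjusted p = 0.00036). Hsp90b1 read 12.35 and 12.38, and 12.35 and 12.35, against 12.14 and 12.16, higher by 0.22 (adjusted p = 0.02) and 0.2 (adjusted p = 0.038). Sdf2l1 read 10.75 and 10.79, and 10.76 and 10.78, against 10.28 and 10.54, higher by 0.36 with each label (adjusted p = 0.0076 and 0.0094). All these chaperone genes were above both controls on all 4 arrays.

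Creld2 read 9.94 and 9.93, and 9.9 and 9.85, against 9.66 and 9.48, higher by 0.37 (adjusted p = 0.0091) and 0.31 (adjusted p = 0.031). Hyou1, lower on day 1, was higher on day 3 at 9.14 and 9.2, and 9.15 and 9.27, against 8.95 and 8.86, by 0.27 (adjusted p = 0.032) and 0.31 (adjusted p = 0.021). Of the rest of the folding group, Canx, Pdia6, P4hb and Manf were higher with both labels, by 0.25 to 0.36, Calr with the Jmjd2c label at 0.27 (adjusted p = 0.0065) and Dnajb11 with the Jmjd2a label at 0.18. Pdia4 read 9.56 and 9.5, and 9.47 and 9.45, against 9.84 and 9.76, differences of -0.27, not called, and -0.35 (adjusted p = 0.037). Dnajb9 read 8.91 and 8.86, and 8.82 and 8.75, against 9.23 and 8.8, and was not called.

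Sec23b read 10.48 and 10.47, and 10.48 and 10.49, against 10.09 and 9.87, higher by 0.5 with each label (adjusted p = 0.00044 and 5e-04). Kdelr2 read 10.2 and 10.23, and 10.25 and 10.25, against 10.01 and 10.04, higher by 0.19 (adjusted p = 0.046) and 0.22 (adjusted p = 0.03). Among the sensors Atf6 read 9.93 and 9.96, and 9.89 and 9.99, against 9.62 and 9.47, higher by 0.4 (adjusted p = 0.0019) and 0.39 (adjusted p = 0.0026). Atf6 arrays of depleted labels were all above the controls. Eif2ak3, at 8.83 and 8.8, and 8.78 and 8.74, against 9.25 and 8.98, differed by -0.3 and -0.36, and Ern1, at 6.75 and 6.66, and 6.39 and 6.36, against 6.84 and 6.62, by -0.03 and -0.36, none of them called.

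**Figure D4:**
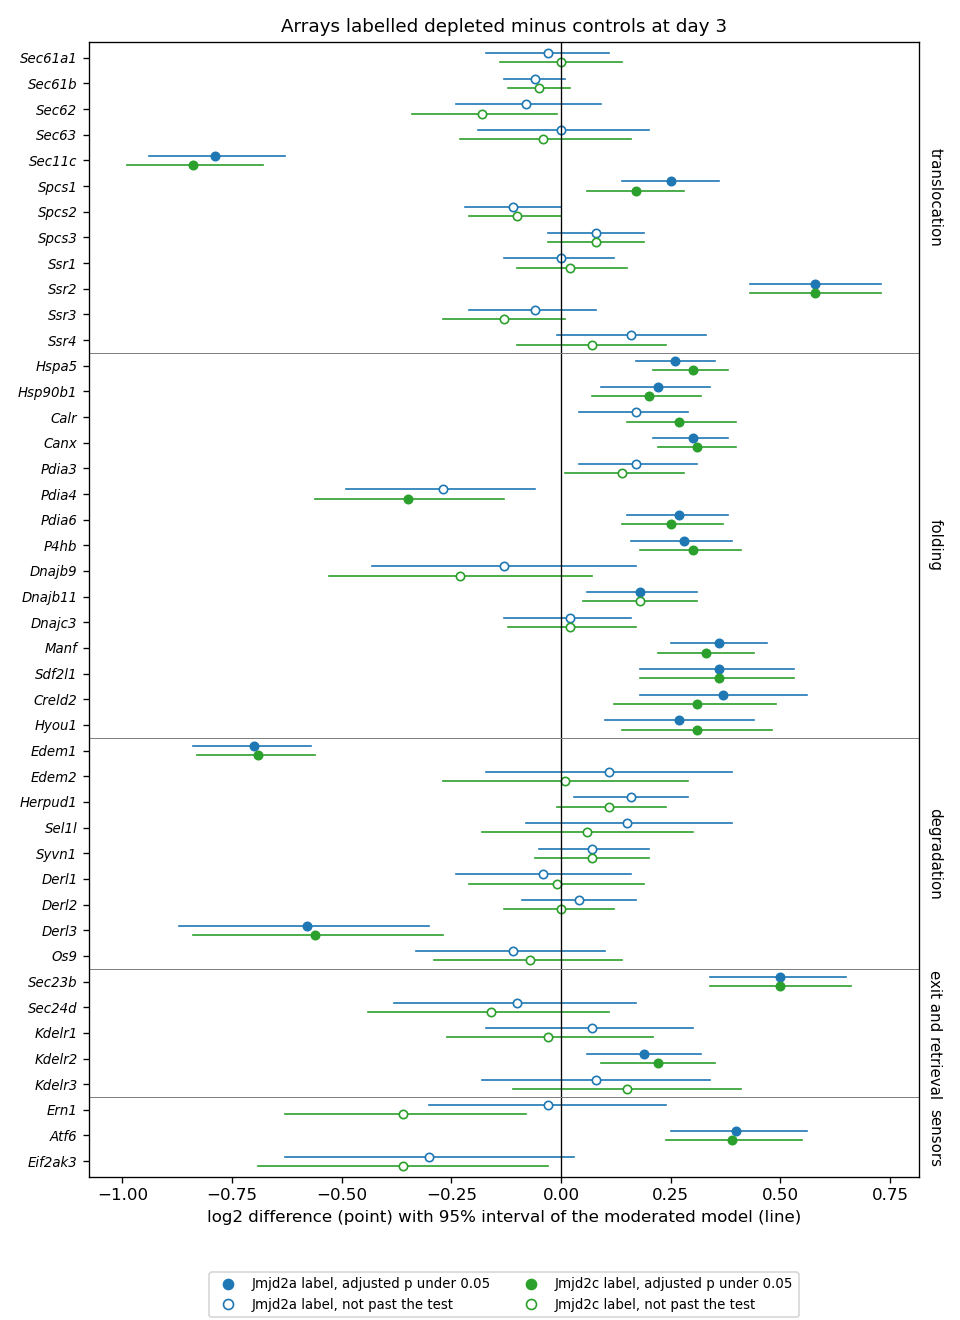
Log2 difference from the control on day 3 (horizontal axis) for each of the 44 measured members (vertical axis, by role) for the labels Jmjd2a depleted and Jmjd2c depleted, with 95% intervals; filled points passed the test. Sec11c, Edem1 and Derl3 lie between -0.5 and -0.9 with both labels, and Ssr2, Sec23b and most folding genes lie to the right of 0.

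Quantile normalization gave 12 higher and 6 lower with each label, against 15 and 3, and 15 and 4. Without the intensity trend, or with the compared arrays alone, 5 folding genes were higher with each label in place of 10. Without day 3 control replicate 2 the members split 15 and 4 with the Jmjd2a label and 13 and 7 with the Jmjd2c label; without Jmjd2a day 3 replicate 2 the Jmjd2a count was 11, with 5 folding genes higher. Without Jmjd2c day 3 replicate 1 or 2 the Jmjd2c count was 12 or 7, with 3 folding genes higher in the second case. Of the 13 macrophage and monocyte genes 9 and 8 were lower and none higher, with summed levels of 9.86 to 10.01 and 9.88 to 10.06 against 11.11 to 11.13 in controls, and 6 of 7 NK cell genes were lower with each label, with 9.35 to 9.53 and 9.35 to 9.66 against 11.39 to 11.42. The part of these in the members' differences was not tested.

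Between the days within the depleted labels, 3 members were called with the Jmjd2a label and 8 with the Jmjd2c label. Of the 11184 brighter genes 5.39% were called higher and 6.35% lower for Jmjd2a, and 7.28% and 10.2% for Jmjd2c. A low count is therefore not particular to the members. With the Jmjd2a label none rose and 3 fell, Pdia4 by 0.51 (adjusted p = 0.01), Dnajb9 by 0.65 (adjusted p = 0.016) and Eif2ak3 by 0.89 (adjusted p = 0.0043), while 2.26% of all probe sets were called higher and 3.35% lower. With the Jmjd2c label 3 rose and 5 fell, with 3.27% and 5.36% of all probe sets called. The 3 that rose were Edem1 by 0.31 (adjusted p = 0.009), Ssr1 by 0.21 and Canx by 0.17, and the 5 that fell were Eif2ak3 by 1.12 (adjusted p = 0.00064), Dnajb9 by 0.74 (adjusted p = 0.0055), Pdia4 by 0.6 (adjusted p = 0.0025), Sec62 by 0.36 (adjusted p = 0.012) and Syvn1 by 0.21 (adjusted p = 0.044). Hspa5, Sec11c, Derl3 and Sec23b, all called in the controls, differed between days by -0.09 to 0.08 with both labels. Marker genes fell in the same comparisons: 10 of 13 macrophage and monocyte genes with each label, Csf1r among them by 3.97 and 4.16, 3 of 7 NK cell genes with each label, 2 and 3 of 6 erythroid genes, and 7 and 8 of 9 B cell genes, with none higher. The summed macrophage levels were 12.08 to 12.44 and 11.99 to 13.22 on day 1 and 9.86 to 10.01 and 9.88 to 10.06 on day 3. Their part in the members' falls was not tested. Quantile normalization gave 1 higher and 3 lower, and 5 and 4, and centring gave 0 and 3, and 1 and 5. Leaving out 1 array moved the counts from 3 to between 0 and 5 and from 8 to between 2 and 13: without Jmjd2a day 3 replicate 1 or 2 the Jmjd2a count was 1 or 0, and 5 without either day 3 control; without Jmjd2c day 1 replicate 1 or 2 the Jmjd2c count was 5 or 4, without Jmjd2c day 3 replicate 1 or 2 it was 3 or 2, and 13 without either day 3 control.

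The change of each label's difference between days, tested as an interaction, was called for 16 members upward and 7 downward with the Jmjd2a label, where 12% of all probe sets were called upward and 6.36% downward. With the Jmjd2c label 16 were upward and 8 downward, against 10.7% and 6.84% of all probe sets, and of the 11184 brighter genes 23.1% and 12.2%, and 20.9% and 13.9%. The downward members were led by Eif2ak3 at -1.28 (adjusted p = 0.0012) and -1.51 (adjusted p = 0.00038), Sec11c at -1.23 ± 0.1 (adjusted p = 1.1e-05) and -1.22 (adjusted p = 8.8e-06), Dnajb9 at -0.95 and -1.04, Derl3 at -0.89 and -0.98, and Pdia4 at -0.81 and -0.9. The upward ones were led by Hyou1 at 0.78 and 0.85, Ssr2 at 0.74 and 0.84, Atf6 at 0.66 and 0.66 and Sec23b at 0.63 and 0.61. The Hyou1 values come from the probe set whose fall in the controls 1 other Hyou1 probe set did not show. By role, 11 of 15 folding genes went upward and 2 downward with each label, and 2 of 9 degradation genes downward and none upward. These interactions use the same control arrays as the comparisons above and are no separate support for them. Quantile normalization gave 12 upward and 9 downward with the Jmjd2a label, and without the intensity trend that count was 13 in place of 23. In the same interactions all 13 macrophage and monocyte genes and all 7 NK cell genes were called downward with each label, with medians of -4.24 and -4.69, and -2.54 and -2.71, as were 7 of 9 B cell genes with each label. Their part in the members' interactions was not tested.

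**Figure D5:**
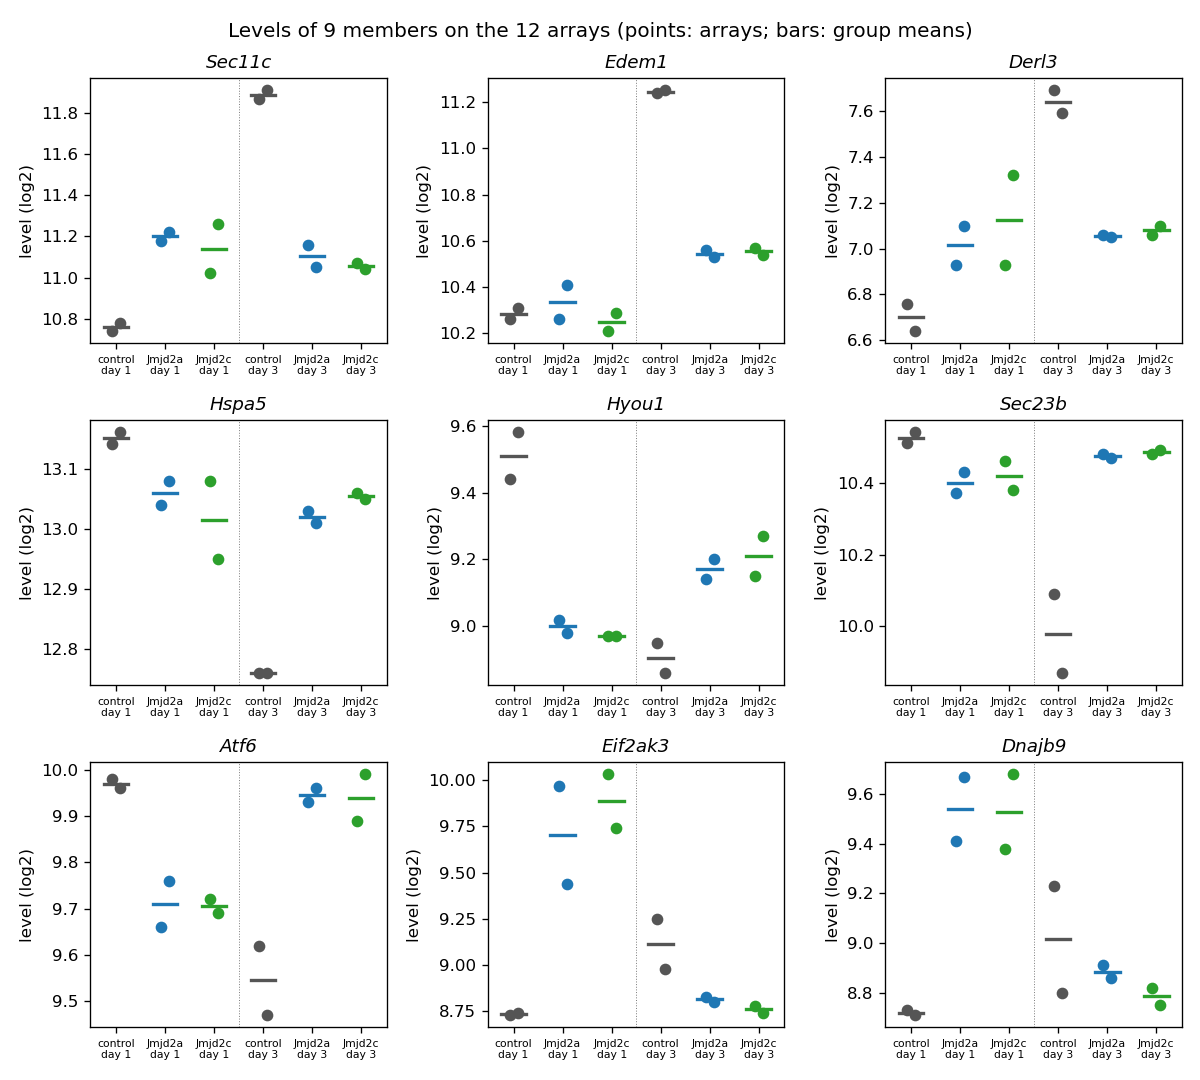
Level (log2, vertical axis) of 9 members on each of the 12 arrays, by group (horizontal axis); points are arrays and bars are the means of 2 arrays. In Sec11c and Edem1 the day 3 controls stand above the other arrays, in Hspa5 below them, and in Eif2ak3 and Dnajb9 the day 1 arrays of both depleted labels are the high ones.

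No member was called between the labels themselves. Of all probe sets 0% were called higher and 0% lower in Jmjd2a against Jmjd2c on day 1, and 0% and 0% on day 3, and limma called none of the 44 members on either day. The smallest adjusted p over the members was 1 on day 1 and 0.85 on day 3, and 2 and 1 members had an unadjusted p under 0.05 in limma, with 1081 and 2571 of the 45037 probe sets. Every alternative setting also called 0 members. The 95% intervals of 43 of 44 members lay within 0.5 of 0 on each day. On day 1 the outermost bounds were -0.5 for Eif2ak3 and 0.43 for Ern1, and on day 3 -0.33 for Kdelr3 and 0.6 for Ern1. With 2 arrays a group the intervals leave room for differences up to those bounds.

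Other genes of the same pathway, from lists that go beyond the 45, were counted the same way. Beside these counts, of the 11184 genes above the median level 14.5% rose and 27.3% fell in the controls, and 25.5% and 19.4% were higher on day 3 with the Jmjd2a and Jmjd2c labels. The lists are small, and counts such as 3 of 14 or 3 of 16 are not above those shares. Of 16 N-glycosylation genes, which attach the sugar tree to new chains, 12 fell and none rose in the controls between day 1 and day 3, with a median of -0.33, and on day 3 10 were higher with the Jmjd2a label and 7 with the Jmjd2c label, none lower. Dad1, a subunit of the oligosaccharyltransferase, fell by 0.89 (adjusted p = 3.5e-06) in the controls. Of 11 genes of the signal recognition particle and translocon 7 fell and none rose in the controls, and 3 and 4 were higher on day 3. Of 16 further COPII genes 6 fell in the controls, and 7 and 5 were higher on day 3, while of 16 COPI genes, whose coat carries the return traffic, 1 rose and 3 fell in the controls. Of 14 further degradation genes 3 fell in the controls, the extraction factors Vcp, Nploc4 and Ufd1, and none rose.

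The 20 further folding and disulphide genes were mixed, with 4 higher and 5 lower in the controls. Mzb1, an ER cofactor of antibody assembly in B cells, rose by 1.15 (adjusted p = 7.2e-07), from 11.51 and 11.58 to 12.68 and 12.71, and on day 3 read 11.9 and 11.82, and 11.95 and 11.84, with the depleted labels. Ero1b, an oxidase that keeps disulphide exchange running, rose by 0.72 (adjusted p = 2e-04), while Mogs, the glucosidase that trims the first sugar, fell by 1.34 (adjusted p = 3.3e-07). On day 3, 6 of the 20 were higher and 4 lower with the Jmjd2a label, and 5 and 4 with the Jmjd2c label. Of the 11184 brighter genes 25.5% were higher and 11.5% lower for Jmjd2a, and 19.4% and 10.5% for Jmjd2c.

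Of 16 regulators of the unfolded protein response, 2 rose and 7 fell in the controls. Xbp1 rose by 0.8 (adjusted p = 1.2e-06), from 11.71 and 11.79 to 12.52 and 12.59, and was lower on day 3 by differences of -0.68 (adjusted p = 8.2e-06) with the Jmjd2a label, at 11.9 and 11.85, and -0.65 (adjusted p = 1.4e-05) with the Jmjd2c label, at 11.92 and 11.89. These probe values do not tell spliced from unspliced Xbp1 mRNA. Atf4, a transcription factor made when PERK slows translation, fell by 0.56 (adjusted p = 6.9e-06) in the controls and was higher by 0.59 and 0.47 on day 3. On day 1, 5 of the 16 were higher with the Jmjd2a label and 4 with the Jmjd2c label, beside 8.59% and 11.1% of the 11184 brighter genes. Ppp1r15a (GADD34), which ends the arrest of translation, was higher by 1.57 (adjusted p = 0.00027) and 1.81 (adjusted p = 6.5e-05), and Ddit3 (CHOP) by 0.52 and 0.46, while Xbp1 differed by 0.12 and 0.11 and was not called. Antibody transcripts moved with the days too: Jchain, the joining chain of secreted IgM, rose by 1.34 (adjusted p = 5.3e-05) in the controls and was lower on day 3 by differences of -0.84 and -0.83, and Ighm, the IgM heavy chain, rose by 0.63 (adjusted p = 9.1e-07), with day 3 differences of -0.38 and -0.36. Sdc1 (CD138), a plasma cell surface marker, fell by 1.2 (adjusted p = 1.9e-06) in the controls, and Prdm1, the plasma cell transcription factor, differed by 0.11 and was not called.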

How the data were processed

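RNA of 12 samples was measured on Affymetrix mouse whole-genome arrays. The deposited values are log2 signals of 45101 probe sets, with the scale found from the values themselves. How the authors normalized them, not given in the sources used here, stays unknown. The 64 control probe sets were left out. Symbols came from the platform annotation: 34945 probe sets named 1 gene, 932 several and 9160 none. A model of 6 group means over all 12 arrays was fitted with limma 3.58.1 in R 4.3.3, with an intensity trend (6 residual and 5.85 prior degrees of freedom), 11 contrasts and Benjamini-Hochberg adjustment over 45037 probe sets. The fit was tested on simulated data. Figures were drawn with matplotlib 3.10.9.

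The members and lists were chosen with earlier results of these data known, and no list is given a test of its own. Values on every array are given for Hspa5, Hsp90b1, Sec61b, Derl3 and the sensors, and for the called member with the largest absolute difference of each role in each comparison with the control or between days. Other pathway genes are counted by list, with up to 3 named by their p, and Xbp1, Atf4 and Ddit3 always. Ssr2 and Pdia4 were added after their values were seen.

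Same-numbered arrays deviated together, at a correlation over 0.1, in 1 of 15 pairs of groups. That pair was the day 1 arrays of the Jmjd2a and Jmjd2c labels, at 0.392. Whether these share a source by number is not stated in the labels and was not tested. In the other pairs the numbers did not pair the arrays, and the main model has no block. Alternatives were quantile normalization, median centring, a dim filter, no trend, array weights, the replicate block, the compared arrays alone, a threshold of 0.1, the mean over probe sets, and leaving out each array.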

Additional observations from a re-analysis of the deposited data

Results flagged for a closer look

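The difference of a depleted label from the control was not the same on day 1 and day 3 for 23 members with the Jmjd2a label and for 24 with the Jmjd2c label, by the limma interaction test. Without the intensity trend the Jmjd2a count was 13. Of all probe sets 12% were called upward and 6.36% downward for Jmjd2a, and 10.7% and 6.84% for Jmjd2c. Of the 11184 brighter genes the shares were 23.1% and 12.2%, and 20.9% and 13.9%. All 13 macrophage and monocyte genes and all 7 NK cell genes were called downward in the same interactions with each label, and their part was not tested. The values are day 3 differences minus day 1 differences on the log2 scale.

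Among the per-array genes, the Jmjd2a values were -1.28 for Eif2ak3, -1.23 for Sec11c, -0.95 for Dnajb9, -0.89 for Derl3, -0.75 for Edem1 and -0.34 for Sec62. They were 0.35 for Hspa5, 0.38 for Creld2, 0.41 for Kdelr2, 0.54 for Sdf2l1, 0.63 for Sec23b, 0.66 for Atf6 and 0.78 for Hyou1.

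The Jmjd2c values were -1.51 for Eif2ak3, -1.22 for Sec11c, -1.04 for Dnajb9, -0.98 for Derl3, -0.7 for Ern1, -0.65 for Edem1 and -0.59 for Sec62. They were 0.27 for Hsp90b1, 0.43 for Hspa5, 0.45 for Kdelr2, 0.58 for Sdf2l1, 0.61 for Sec23b, 0.66 for Atf6 and 0.85 for Hyou1. Groups of 2 arrays are too small to test for a single array that stands apart within its group.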

How the results depend on the processing

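The number of called members moved with how the spread was estimated and with single arrays. Without the intensity trend it was 6 for Jmjd2c on day 1, 11 for each label on day 3, 4 for the days within Jmjd2c and 13 for the Jmjd2a interaction. With array weights it was 24 for Jmjd2c on day 1, 12 for Jmjd2c on day 3, 5 for the days within Jmjd2a and 14 for the days within Jmjd2c. With the compared arrays alone it was 10 for Jmjd2a and 9 for Jmjd2c on day 3. The days within Jmjd2a gave 5 with dim probe sets left out and 5 at an adjusted p under 0.1. Leaving out 1 array gave 3 to 12 for Jmjd2a and 4 to 23 for Jmjd2c on day 1, 11 to 21 and 7 to 20 on day 3, 15 to 23 for the control days, 0 to 5 and 2 to 13 for the days within Jmjd2a and Jmjd2c, 17 to 25 and 20 to 27 for the interactions, and 0 between the labels on both days. A replicate block was also tried, although same-numbered arrays deviated together only on day 1 between the 2 depleted labels. With it the counts were 7 and 12 on day 1, 19 and 18 on day 3, 23, 3 and 8 between days, 21 and 24 for the interactions and 0 between the labels. With the mean over a gene's probe sets, 2 values changed sign: Hsp90b1 between days in Jmjd2c was -0.25, and Sec62 between days in controls was -0.06. For the members given on every array by rule, a set that includes the largest differences of each role, 826 called values without 1 array kept their call and 146 lost it. Over all members, the calls that held whichever 1 array was left out were 3 of 9 and 3 of 12 on day 1, and 11 of 18 and 7 of 19 on day 3. Between days they were 15 of 23 in controls, 0 of 3 with the Jmjd2a label and 2 of 8 with the Jmjd2c label. For the interactions they were 17 of 23 and 19 of 24. The cause of these changes was not tested. Only Kdelr3, 1 member, fell to the dim filter. The normalization is not stated, so absolute levels carry no further scale, and 2 arrays a group limit every call.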

Other observations

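Lists of further cell types, counted as in the comparisons above, moved in part with the members. In the controls between days, 4 of 9 T cell genes, 2 of 6 erythroid genes and 4 of 7 dendritic cell genes rose, and 1 dendritic cell gene fell. On day 1 the higher genes numbered 2 and 3 of the T cell list, 3 and 4 of the erythroid list, and 2 and 3 of the dendritic cell list with the Jmjd2a and Jmjd2c labels. Csf1r, the receptor that macrophages need to survive, read 5.72 and 5.7 in day 1 controls, 9.98 and 10.3 with the Jmjd2a label and 9.91 and 11.18 with the Jmjd2c label on day 1, and 7.36 and 7.55 in day 3 controls. Of 7 plasma cell genes, some of which also stand in the lists of the pathway, 3 rose and 1 fell in the controls between days, and on day 3 1 was higher with each label and 4 and 3 were lower.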
